A study of Mus musculus with 6 samples.

Results

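Choroid plexus epithelium genes were followed over hippocampus from Phf8 knockout (KO) and wild-type (WT) mice, with 3 Affymetrix arrays of each genotype and 1 array for each sample. The set holds 10 marker genes of this epithelium, and its members are all probe sets that the platform's gene table gives to 1 of these genes alone. This found 14 probe sets of 45037, for 8 genes. Ttr has 4 probe sets, Kl, Clic6 and Sostdc1 have 2 each, and Folr1, Kcnj13, Slc4a5 and Otx2 have 1 each. The table names no probe set for Prlr, the prolactin receptor, or Enpp2, which encodes the secreted enzyme autotaxin, so both were not analysed here.

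The KO mice lack the exons that encode the JmjC demethylase domain of PHF8, which were deleted with EIIa-Cre. The KO males were bred from heterozygous females and inherited the deletion. The line was made on a 129 background and crossed back to C57BL/6J, and the controls were WT littermates. The labels give a C57BL/6 background and an age of 10 weeks for both genotypes, and the methods describe male mice. The sources do not settle whether each array came from a single mouse or from pooled mice, and p-values therefore measure only the spread between these arrays.

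The choroid plexus is a frond of vascular stroma covered by a single sheet of cuboidal epithelium that hangs into the brain ventricles and makes cerebrospinal fluid. It is a neighbour of the hippocampus and no part of it, since the choroid fissure of the lateral ventricle runs along the fimbria. Its epithelium expresses a set of secreted carriers, ion and bicarbonate transporters and transcription factors, many of which neurons and glia hardly express.

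The brightest Phf8 probe set had log2 signals of 8.23, 8.55 and 7.99 on the arrays of KO replicates 1, 2 and 3, against 9.90, 9.66 and 9.73 on those of WT replicates 1, 2 and 3. This probe set of the targeted gene was thus lower on every KO array (difference -1.51, adjusted p = 0.124 from limma over 27408 probe sets, and adjusted p = 0.00855 without KO replicate 3). The other Phf8 probe sets had signals too low to be kept for testing, with differences of 0.32 and -0.06. KO replicate 3 stood apart over all genes, with correlations of 0.925 to 0.940 with the other arrays, against 0.976 to 0.987 among the other 5. On that array 9 thalamus markers lay 2.73 above their WT mean on the log2 scale (median), and 7 CA1 pyramidal cell markers stood at -1.55. The main counts from limma and the median member difference are therefore also given without it. Values by gene, spreads, marker lists and overlap counts include it unless stated.

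Values are log2 MAS5 signals as deposited. A probe set was kept for testing when its signal exceeded the 40th percentile of its array, which is 5.73 to 6.05 on the log2 scale, on at least 3 of the 6 arrays. Of the 14 member probe sets, 13 were kept. The exception is a second Kl probe set, which read 5.13, 1.68 and 0.86 in KO replicates 1, 2 and 3 and 2.22, 4.37 and 1.48 in WT replicates 1, 2 and 3. It lay under the filter level of its array on all 6.

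All 7 genes other than Ttr varied over the WT arrays in 1 and the same order. Each was highest in WT replicate 2, intermediate in WT replicate 1 and lowest in WT replicate 3, on all 9 of their kept probe sets. The distance between WT replicates 2 and 3 ran from 1.40 to 2.50 on the log2 scale, a fold of 2.64 to 5.66. Over all kept probe sets, 18.5% show this order, and 3.9% have a range of at least 1 over the WT arrays, which all 9 had. In such bulk tissue, fewer cells of a type and less RNA per cell cannot be told apart.

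In KO, replicate 1 was the highest array for all 9, and 8 of the 9 were higher in replicate 2 than in replicate 3, an order that 17.1% of kept probe sets show. The exception is Otx2. The distance between KO replicates 1 and 2 was 0.58 to 1.35 on the log2 scale, and that between KO replicates 1 and 3 was 0.51 to 4.84.

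**Figure D1:**
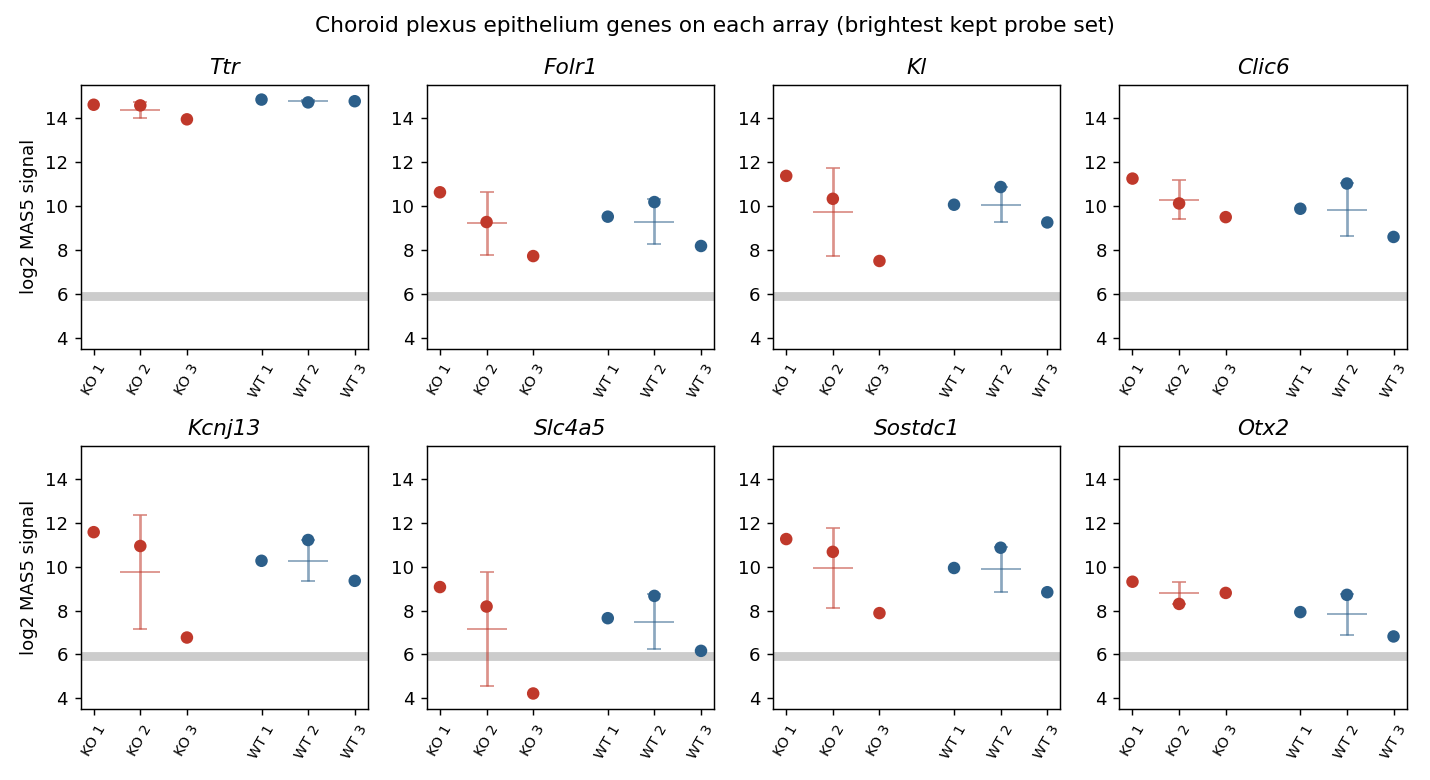
Log2 MAS5 signal (y axis) of the brightest kept probe set of each measured gene on each array (x axis), with KO arrays in red, WT arrays in blue, and the mean and SD of each genotype as a bar. Grey shading marks where the arrays' filter levels lie, 5.73 to 6.05, and in every panel but that of Ttr the WT arrays fall in the order 2, 1, 3 from high to low.

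Among the secreted and receptor proteins, Folr1 encodes folate receptor alpha, which carries folate into the cerebrospinal fluid. Its probe set (1450995_at) read 10.62, 9.26 and 7.71 in KO replicates 1, 2 and 3, against 9.51, 10.17 and 8.17 in WT replicates 1, 2 and 3. The 2 genotypes overlapped, with the highest and the lowest of the 6 values both in KO. The means were 9.20 ± 1.45 in KO and 9.28 ± 1.02 in WT (SD, n = 3 each), and KO differed from WT by -0.09 (limma, standard error 0.77, adjusted p = 0.985).

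Kl encodes klotho, the co-receptor for the hormone FGF23 that is also shed into the cerebrospinal fluid. The kept probe set (1423400_at) read 11.36, 10.32 and 7.49 in KO replicates 1, 2 and 3, against 10.05, 10.86 and 9.24 in WT replicates 1, 2 and 3. KO replicate 3 lay 1.75 below the lowest WT array, while KO replicate 1 lay above the highest. The difference of -0.33 had a standard error of 0.93 (adjusted p = 0.947 from limma).

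Sostdc1 encodes a secreted antagonist of BMP and Wnt signaling. Its brighter probe set (1449340_at) read 11.25, 10.67 and 7.88 in KO replicates 1, 2 and 3, against 9.93, 10.86 and 8.83 in WT replicates 1, 2 and 3. The second (1460250_at) read 9.56, 8.40 and 6.41 in KO and 7.99, 8.94 and 7.54 in WT. Both probe sets put the 6 arrays in the same order within each genotype, and the differences between KO and WT were 0.06 and -0.03 (standard errors 0.89 and 0.76).

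Among the transport proteins, Kcnj13 encodes the inward rectifier potassium channel Kir7.1 of the apical membrane. Its probe set (1456418_at) read 11.57, 10.93 and 6.77 in KO replicates 1, 2 and 3, against 10.26, 11.21 and 9.35 in WT replicates 1, 2 and 3. KO replicate 3 lay 2.58 below the lowest WT array, and KO replicate 1 was 27.7 times KO replicate 3 on the linear scale. The difference between genotypes was -0.52 with a standard error of 1.19 (adjusted p = 0.930 from limma).

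Slc4a5 encodes a sodium bicarbonate cotransporter of the same membrane. Its probe set (1435420_at) read 9.07, 8.18 and 4.23 in KO replicates 1, 2 and 3, against 7.65, 8.67 and 6.16 in WT replicates 1, 2 and 3. The value of KO replicate 3 is below the filter level of that array, so the fold of 28.7 between KO replicates 1 and 3 rests on a signal near background. The difference was -0.34 with a standard error of 1.24 (adjusted p = 0.962 from limma).

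Clic6 belongs to the chloride intracellular channel family. Its brighter probe set (1454866_s_at) read 11.24, 10.11 and 9.49 in KO replicates 1, 2 and 3, against 9.87, 11.01 and 8.58 in WT replicates 1, 2 and 3. The second (1434165_at) read 9.64, 8.39 and 8.31 in KO and 8.65, 9.47 and 7.38 in WT. On both, KO replicate 3 lay above the lowest WT array, by 0.90 and 0.93. The differences were 0.46 and 0.28 (standard errors 0.65 and 0.57).

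Otx2 encodes a homeodomain transcription factor that the choroid plexus needs to form and that is also expressed in parts of the diencephalon and midbrain. Its probe set (1425926_a_at) read 9.31, 8.30 and 8.80 in KO replicates 1, 2 and 3, against 7.93, 8.71 and 6.82 in WT replicates 1, 2 and 3. It was the member with the largest mean difference, 0.98 (standard error 0.48, unadjusted p = 0.0778 and adjusted p = 0.782 from limma), and its genotypes overlapped because WT replicate 2 lay above KO replicate 2. It was also the only member gene above every WT array in KO replicate 3, the array with the raised thalamus markers, whose part in this value was not tested.

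Ttr encodes transthyretin, the carrier of thyroxine and of retinol-binding protein that this epithelium secretes in large amounts. Judged by its brightest probe set, Ttr was the member that varied least. Its brightest probe set (1454608_x_at) read 14.60, 14.57 and 13.93 in KO replicates 1, 2 and 3, against 14.83, 14.71 and 14.76 in WT replicates 1, 2 and 3. The WT range of 0.13 is below the median of 0.24 over all kept probe sets, whereas for the other 7 genes that range was above that of 98.9% of kept probe sets or more. On the 4 Ttr probe sets the distance between WT replicates 2 and 3 ran from -0.05 to 0.54. Their range over the KO arrays ran from 0.65 to 1.89, the widest of them above the 1.01 of Otx2.

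Ttr was near the top of the signal scale. Its 4 probe sets ranked between 3 and 71 among the 45037 on each array other than KO replicate 3, where they ranked between 132 and 776, and the highest signal of any probe set was 14.82 to 14.91. Names that end in _x_at or _s_at mark probe sets that can also match other transcripts. Whether such bright signals still follow the amount of RNA was not tested. All 4 were lowest in KO replicate 3, by 0.71 to 1.40 below the lowest WT array. The dimmest on that array (1451580_a_at) read 14.65, 14.41 and 12.76 in KO replicates 1, 2 and 3, against 14.54, 14.71 and 14.16 in WT replicates 1, 2 and 3, and it was the only one with the WT order of the other members.

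Within each genotype most member genes thus lay high or low together, as the plot of deviations from the genotype mean shows. The median deviation of the 8 genes was 1.37, 0.40 and -1.77 in KO replicates 1, 2 and 3 and 0.06, 0.91 and -1.02 in WT replicates 1, 2 and 3. The SD within genotypes had a median of 1.36 over the 8 genes, against 0.26 over all kept probe sets, and it ran from 0.27 for Ttr to 2.03 for Slc4a5.

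**Figure D2:**
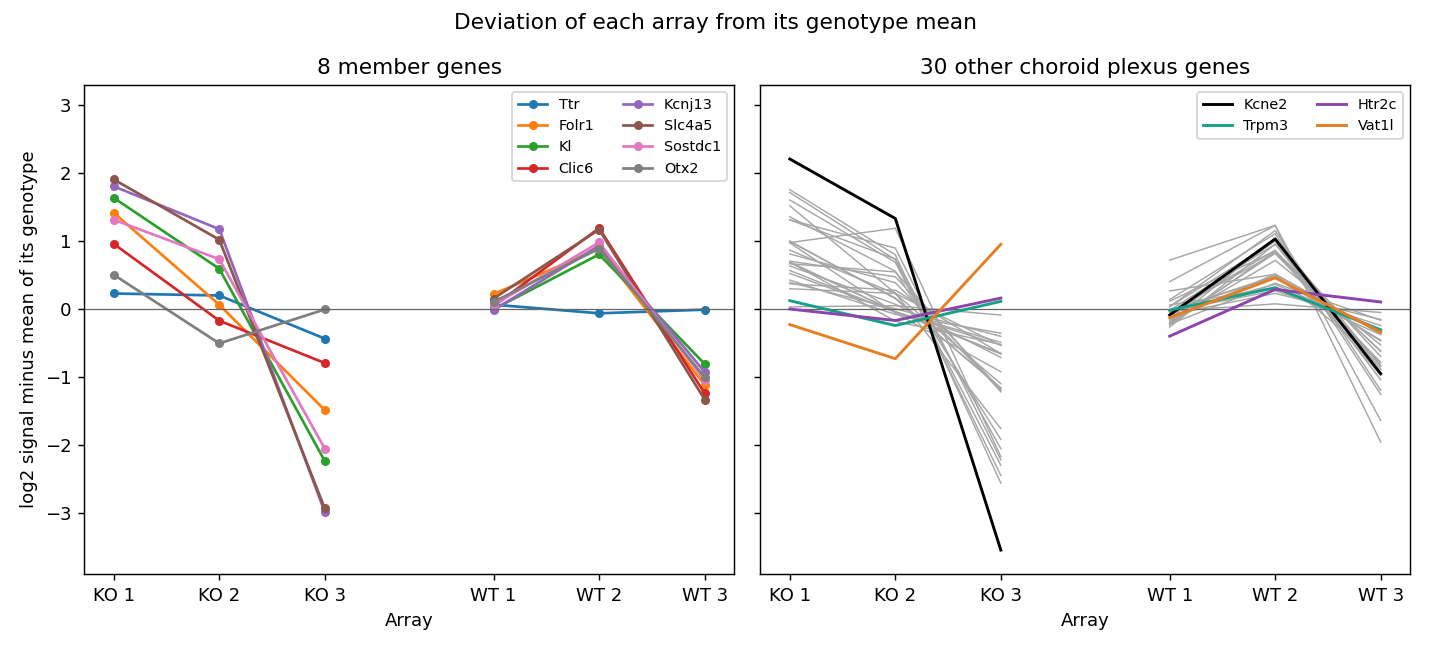
Log2 signal minus the mean of its genotype (y axis) on each array (x axis) for the 8 member genes (left) and 30 other choroid plexus genes (right), with a line joining the values of a gene within a genotype. The median deviation of all 8 genes is lowest in replicate 3 of each genotype, at -1.77 in KO and -1.02 in WT, and the genes lie farthest apart in KO replicate 3.

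The shifts differed in size from gene to gene, most of all in KO replicate 3. Relative to KO replicate 2, that array was lower by 4.16 for Kcnj13, 3.96 for Slc4a5, 2.83 for Kl, 2.79 and 1.98 for the probe sets of Sostdc1, and 1.55 for Folr1. For Clic6 it was lower by only 0.62 and 0.08, and for Otx2 it was 0.50 higher. KO replicate 3 lay below every WT array for 6 of the 8 genes, a pattern that 41.1% of kept probe sets show, and above every WT array for 1, Otx2, as 40.3% of kept probe sets do. KO replicate 1 lay above every WT array for 7 of the 8, all but Ttr, against 32.4% of kept probe sets.

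With the 3 KO arrays, no member passed the test between genotypes. Of the 13 kept probe sets, 0 passed an adjusted p of 0.05 in limma, where 0.0219% of all kept probe sets passed, all lower in KO. With 1 probe set per gene, 0 of the 8 genes passed, against 0.062% of 12903 genes, also all lower in KO. At an unadjusted p under 0.05, 1 member passed, against 6.18% of all kept probe sets. It was the brightest Ttr probe set, with a difference of -0.40 (95% interval -0.79 to -0.01, adjusted p = 0.782). Its unadjusted p in limma was 0.141 after quantile normalization, 0.0884 after median centring and 0.102 without a variance trend. In some other settings it stayed under 0.05, such as 0.0429 with the filter at the 20th percentile. The median difference of the 13 was -0.30, against -0.01 over all kept probe sets. Of all 27408 kept probe sets 13173 were higher in KO, and of the 13 member probe sets 4 were higher and 9 lower. KO and WT arrays did not overlap on 2 of them, both Ttr and both lower in KO, and 15.2% of all kept probe sets did not overlap in either direction.

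The intervals were wide. For Kcnj13 the 95% interval of the difference ran from -3.30 to 2.27 and for Slc4a5 from -3.24 to 2.56. Differences of several-fold in either direction are thus not excluded by these arrays. An exact permutation test of 3 against 3 arrays cannot go below p = 0.1.

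**Figure D3:**
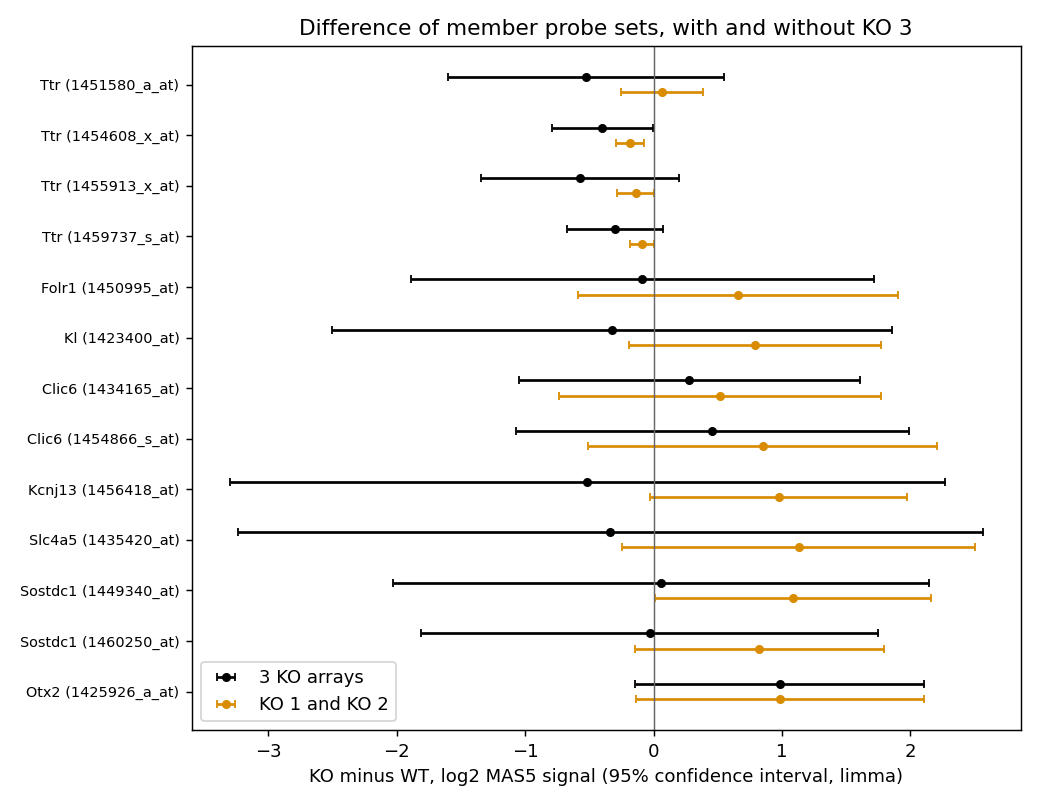
Difference between KO and WT (x axis, log2 MAS5 signal) of the 13 kept member probe sets, with 95% confidence intervals from limma, for all 3 KO arrays (black) and for KO replicates 1 and 2 alone (orange). With all arrays every interval but that of the brightest Ttr probe set holds 0, and without KO replicate 3 all probe sets outside Ttr lie above 0.

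The direction turned with single arrays. Without WT replicate 2 the median member difference was 0.25, against -0.01 over all kept probe sets, with 8 of the 13 higher in KO. Without KO replicate 3, all 9 kept probe sets other than those of Ttr were higher in KO, by 0.52 to 1.13, against 48.4% of all kept probe sets. The median of the 13 was then 0.79, against -0.01 over all kept probe sets. Still 0 of the 13 passed in limma, where 0.234% of kept probe sets passed (0.0401% higher in KO), and 2 had an unadjusted p under 0.05, against 12.6%. These were the brighter Sostdc1 probe set (1.09, 95% interval 0.01 to 2.16, adjusted p = 0.395) and the brightest Ttr probe set (-0.18, adjusted p = 0.221). Kcnj13 was higher by 0.98, with an interval of -0.02 to 1.98 (adjusted p = 0.407), and Otx2 by 0.98 as well, with an interval of -0.14 to 2.10. KO replicate 2 lay below WT replicate 2 on all 9 of these probe sets, and WT replicate 2 below KO replicate 1.

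A list of 34 further genes of this epithelium, 30 of them measured, was set beside the members. It was chosen with earlier results of these data known, so its counts are a description and no independent support. Of the 30, 28 had the WT order 2, 1, 3 and 25 had the KO order 1, 2, 3, and 24 had both, against 3.63% of all kept probe sets. Kcne2, a subunit of potassium channels, had the widest range, with log2 signals of 10.39, 9.52 and 4.64 in KO replicates 1, 2 and 3 and 8.74, 9.86 and 7.88 in WT replicates 1, 2 and 3. Aqp1, the apical water channel, read 8.52, 7.23 and 5.24 in KO and 7.45, 8.42 and 6.05 in WT. The tight junction gene Cldn2 read 9.75, 8.84 and 5.85 in KO and 8.24, 9.37 and 7.48 in WT.

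These and the other 5 genes named for a wide range, Cldn1, F5, Steap1, Tmem72 and Cox8b, were lowest in KO replicate 3, a pattern that choosing them by range favours. All 8 but Steap1 read below the filter level of that array there, so their ranges rest on signals near background. Over the whole list, 17 of 30 lay below every WT array in KO replicate 3, against 41.1% of kept probe sets, and the median distance to the lowest WT array was -0.06. F5, which encodes coagulation factor V, read 10.20, 9.24 and 5.88 in KO and 8.86, 9.78 and 8.09 in WT. With limma 0 of the 30 reached an adjusted p under 0.05, either with all arrays or without KO replicate 3. At an unadjusted p under 0.05, 3 of 30 passed with all arrays, against 6.18% of kept probe sets, and 9 of 30 without KO replicate 3, against 12.6%. Their median difference was 0.12 with 18 of 30 higher in KO, where 13173 of 27408 kept probe sets were higher. Without KO replicate 3 it was 0.73 with 29 of 30 higher, against 48.4% of kept probe sets.

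Of the 30, 3 genes lay above every WT array in KO replicate 3, against 40.3% of kept probe sets. They were Vat1l, Htr2c and Trpm3, which were named after their values were seen. The same 3 were those with an unadjusted p under 0.05 in limma with all arrays. Htr2c, the serotonin receptor 2C of the choroid plexus and of many neurons, read 11.96, 11.79 and 12.12 in KO replicates 1, 2 and 3, against 10.71, 11.40 and 11.21 in WT replicates 1, 2 and 3. Its genotypes did not overlap, and its difference of 0.85 had an unadjusted p = 0.00236 and an adjusted p = 0.663 in limma. Such a lack of overlap was seen for 2 of the 30, Htr2c and Vat1l, against 15.2% of kept probe sets. Vat1l read 9.95, 9.45 and 11.13 in KO and 8.85, 9.44 and 8.64 in WT. The raised thalamus markers are on that same array, and their part in these values was not tested.

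Over all genes, the pattern closest to the members was sought as the correlation with their median deviation from the genotype mean. This correlation is over 6 arrays that carry only 4 free deviations, all genes share the arrays and KO replicate 3 weighs heavily, so it is a description. Of the 30 further choroid plexus genes, chosen with earlier results known, 23 reached 0.9. Of all 12895 genes outside the members 4.03% did. Without KO replicate 3 the numbers were 25 of 30 and 5.75%. Among the members it was 0.99 for Sostdc1, Slc4a5 and Kl, 0.98 for Folr1, 0.97 for Kcnj13, 0.89 for Clic6, 0.78 for Ttr and 0.58 for Otx2. Without KO replicate 3, with fewer free deviations still, it was 0.999 for Otx2 and Clic6 and -0.21 for Ttr. Each member is itself part of the median it was compared with, which favours high values among the members.

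The 10 genes with the highest values, all at 0.99 or above, were D130037M23Rik, Scpep1, Ecrg4, Oca2, Baiap2l1, Col8a1, Cep97, Gpx8, Fap and Myof. Only Col8a1, a collagen gene, was on the list of choroid plexus genes. Ecrg4, which encodes the secreted peptide precursor augurin, had the widest swing, with 12.39, 11.55 and 8.94 in KO replicates 1, 2 and 3 and 10.71, 11.80 and 9.42 in WT replicates 1, 2 and 3. Fap, a cell surface protease gene, read 9.04, 8.27 and 5.95 in KO and 7.38, 8.36 and 6.62 in WT. In KO replicate 3, Fap, Oca2, Baiap2l1, Myof and D130037M23Rik read below the filter level of that array, so those signals are near background. Cep97, a centriole gene, moved only between 9.15 and 9.42, since the measure takes no account of size. After quantile normalization 3 of these 10 genes were among the 10 highest, and without KO replicate 3 it was 0 of the 10.

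**Figure D4:**
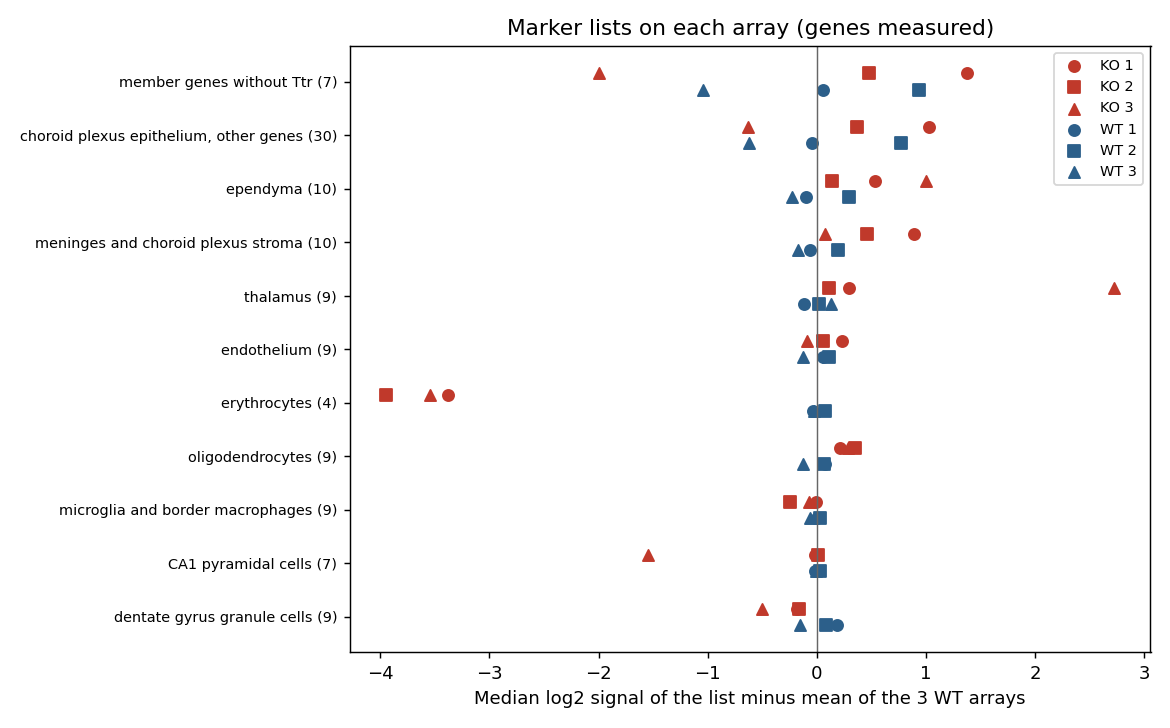
Median log2 signal of each marker list relative to the WT mean (x axis, log2), for KO arrays in red above WT arrays in blue, and the count of measured genes beside each name. The member genes without Ttr run from -1.99 to 1.38, and the thalamus markers stand at 2.73 in KO replicate 3.

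Markers of neighbouring tissue moved with these genes on some arrays and not on others. The 10 ependyma markers, all 10 measured and above the filter level on all arrays, had medians of 0.54, 0.14 and 1.0 in KO replicates 1, 2 and 3 relative to the WT mean, and -0.10, 0.29 and -0.23 in WT replicates 1, 2 and 3. Their summed signal ran from 3165 to 5538 units in KO and from 2467 to 3467 units in WT. They shared the order of the choroid plexus genes on the WT arrays but were highest in KO replicate 3, where most choroid plexus genes were lowest. Foxj1, the master regulator of motile cilia, read 7.71, 6.00 and 7.99 in KO and 6.82, 7.34 and 6.81 in WT.

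The list for meninges and choroid plexus stroma, with 10 of 12 genes measured and 7 above the filter level on all arrays, had medians of 0.89, 0.46 and 0.08 in KO replicates 1, 2 and 3 and -0.06, 0.19 and -0.17 in WT replicates 1, 2 and 3. Its summed signal was 19071 to 24634 units in KO and 14209 to 17654 units in WT. Igf2, a growth factor gene of that stroma, read 11.55, 10.50 and 9.44 in KO and 9.97, 10.68 and 9.46 in WT, and so followed the order of the epithelial genes. Col1a2, a fibrillar collagen gene, read 9.30, 8.86 and 9.35 in KO and 7.58, 8.34 and 7.75 in WT.

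Thalamus markers, 9 of 10 measured and all 9 above the filter level on all arrays, had a summed signal of 6141 to 36125 units in KO and 4677 to 5224 units in WT. The 9 measured endothelium markers had medians of 0.24, 0.06 and -0.09 in KO replicates 1, 2 and 3 and 0.06, 0.12 and -0.12 in WT replicates 1, 2 and 3, the same order as the choroid plexus genes over a smaller range. The 9 microglia and macrophage markers had medians between -0.24 and 0.03. The 9 oligodendrocyte markers had medians of -0.13 to 0.35, and the 9 of dentate gyrus granule cells of -0.50 to 0.19. The 4 measured erythrocyte markers, none of them above the filter level on all arrays, were lower on every KO array, with medians of -3.38 to -3.95 against -0.04 to 0.08 in WT, and showed no order like that of the choroid plexus genes. The part of these tissues in the values of the member genes was not tested.

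Most of the measured genes, Otx2 among them, moved together on the WT arrays. Promoters of the 10 listed genes were therefore searched for the core letters of the motif that OTX2 binds. Prlr and Enpp2 are among the 10 but were not measured. RefSeq promoters (GRCm38.p6, from 250 bases before to 50 after a start) were at hand for 5 of the 10 genes, with 10 starts, for Kcnj13, Kl, Otx2, Prlr and Slc4a5. The motifs searched, on both strands, were TAATCC (the bicoid-type homeodomain core), GTAAACA (the forkhead core) and TATAAA (the TATA box), and no match overlapped another. Shown here are 3 of the promoters that hold a match, which is in capitals, for the 2 transport genes with the widest range and for Otx2.
Kcnj13 (chr1:87394680-87394979, minus strand): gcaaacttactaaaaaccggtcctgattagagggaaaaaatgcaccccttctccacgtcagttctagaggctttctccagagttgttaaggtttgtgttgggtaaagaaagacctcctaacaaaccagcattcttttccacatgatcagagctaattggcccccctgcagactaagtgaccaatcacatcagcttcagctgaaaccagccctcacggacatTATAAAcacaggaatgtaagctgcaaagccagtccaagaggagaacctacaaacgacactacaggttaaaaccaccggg
Slc4a5 (chr6:83237125-83237424, plus strand): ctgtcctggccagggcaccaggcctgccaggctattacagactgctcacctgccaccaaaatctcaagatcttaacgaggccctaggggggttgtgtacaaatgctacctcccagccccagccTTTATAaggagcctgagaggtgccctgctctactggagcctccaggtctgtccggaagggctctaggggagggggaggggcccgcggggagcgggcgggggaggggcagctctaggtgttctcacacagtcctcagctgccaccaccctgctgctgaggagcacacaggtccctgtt
Otx2 (chr14:48665060-48665359, minus strand): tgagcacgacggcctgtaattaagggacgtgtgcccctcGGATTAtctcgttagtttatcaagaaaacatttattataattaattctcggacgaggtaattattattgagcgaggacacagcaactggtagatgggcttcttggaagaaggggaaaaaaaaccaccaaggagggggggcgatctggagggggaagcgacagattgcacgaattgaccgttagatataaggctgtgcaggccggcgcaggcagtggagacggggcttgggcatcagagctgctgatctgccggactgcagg

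TAATCC was in 1 of the 10 promoters, that of 1 of the 4 Otx2 starts, where its reverse complement begins 211 bases before the start, and 7.06% of all 32851 promoters hold it. TATAAA was in 3, with 13.6% of all promoters holding it, and in Kcnj13 it begins 29 bases before the start. In Slc4a5 it is on the opposite strand, 127 bases before the start. GTAAACA was in 1, at a start of Prlr, against 3.65% of all promoters. Kl held no match, which says only that these letters are not in its window. The matches are letters and say nothing of binding.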

How the data were processed

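Total RNA of hippocampus was labelled with a 3' IVT kit and hybridized to Affymetrix mouse arrays. The deposited values are log2 MAS5 signals. MAS5 and affy are the tools in the submitters' processing notes, with versions not given in the sources used here, and the methods name GeneSpring and a filter on Absent calls, which was replaced here by the filter on the 40th percentile. The authors' scaling leaves a mean linear signal of 497.5 to 498.2 after trimming 2% at each end, so a level is relative to its array. MAS5 subtracts background, so low signals are the least certain. Signals depend on the probes, so no gene's RNA level was set against another's, and the ranks of the Ttr probe sets give only their place on the signal scale.

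KO minus WT was fitted over 27408 kept probe sets with limma 3.58.1 in R 4.3.3 (lmFit, eBayes with trend, two-sided, Benjamini-Hochberg, threshold 0.05), after a check on simulated data. The gene table pairs 34945 probe sets with 1 gene, 932 with several and 9160 with none. Named are all members, Phf8, 8 listed choroid plexus genes by widest range within a genotype, the 10 genes most like the members, and marker examples. Members and lists were chosen with earlier results of these data known. A gene is represented by its brightest kept probe set. The number of arrays limits the precision. Quantile normalization, centring, filters, an offset, variance models, array weights, a replicate block, 1 probe set per gene and leaving out each array were tried.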

Additional observations from a re-analysis of the deposited data

How the results depend on the processing

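In no setting that could be fitted did a member probe set pass an adjusted p of 0.05 in limma. Of all kept probe sets 6 passed, against 1 without the filter on low signals, 2 with the replicate block, 0 to 64 when an array was left out, 0 without a variance trend in limma (1747 at an unadjusted p under 0.05) and 307 with array weights estimated gene by gene. Those weights, added after seeing the data, put 3.03 on KO replicate 1, 0.411 on KO replicate 2 and 0.131 on KO replicate 3, and the median member difference was then 1.002, with Folr1 at 0.99, Kcnj13 at 1.002, Kl at 1.01, Slc4a5 at 1.21, the dimmer Sostdc1 probe set at 1.15 and Ttr 1451580_a_at at 0.0651. The planned default estimate of array weights did not converge and was not used.

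Leaving out 1 array gave median member differences of -0.75 (without KO replicate 1) to 0.79 (without KO replicate 3). It was 0.25 without WT replicate 2, where Folr1, Kl, Slc4a5 and the dimmer Sostdc1 probe set turned positive. The ranges were -0.80 to 0.66 for Folr1, -1.14 to 0.79 for Kl, -1.42 to 0.98 for Kcnj13, -1.29 to 1.13 for Slc4a5, -0.60 to 1.09 and -0.75 to 0.82 for Sostdc1, -0.16 to 1.05 and -0.28 to 0.76 for Clic6 and -0.88 to 0.0652 for Ttr 1451580_a_at, so the sign of these rests on single arrays. Otx2 stayed positive (0.48 to 1.43) and the other Ttr probe sets negative. Of 78 such values 18 turned sign, 6 of them without KO replicate 3, and the cause was not tested. Over all kept member probe sets the KO order held for 12 of 13, against 7 of 8 genes.

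The replicate block treats equal replicate numbers as pairs, but the labels do not pair the samples. The correlations of deviations between same-numbered arrays were -0.04, 0.07 and 0.13, and KO replicate 1 correlated best with WT replicate 2 (0.20).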
